A study of Mus musculus with 13 samples.

Results

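The 10 genes described here, H19, Igf2, Igf2r, Dlk1, Meg3, Peg3, Mest, Plagl1, Cdkn1c and Grb10, are imprinted genes with roles in growth. They were found by symbol among the 38279 gene symbols of a read count table, and all 10 were among the 20101 symbols that passed a filter on low counts. The study measured RNA by sequencing in mice in which the ubiquitin ligase subunit gene Fbxw7 (also written Fbw7) was removed by Cre recombinase, with excision induced by mating. The table holds 6 mammary tumours from Cre-positive mice and 4 wild-type mammary glands from Cre-negative mice. The 3 samples of mammary epithelium among the 13 in the series were not analysed here.

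Mating took place when the mice were 12 weeks old, in the wild-type mice too. Glands 1 to 3 were taken at 20 weeks and gland 4 at 40 weeks. Tumours 1 to 6 were taken at 25, 32, 39, 19, 53 and 25 weeks. The labels give neither the promoter that drove Cre nor the strain. Nor do they state that every library stems from a different animal, so the p-values speak only for the spread among these libraries, which may in part be technical. A gland is a whole tissue with fat, vessels, stroma and muscle next to it, and a tumour is another mixture, so fewer cells of a type and less RNA per cell cannot be told apart.

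An imprinted gene is expressed mostly from the copy inherited from 1 parent, under the control of DNA methylation laid down in the egg or the sperm. Many imprinted genes form clusters that share a control region. In such a cluster a gene read from the paternal copy, often one that favours growth, can lie beside one read from the maternal copy, often one that restrains it. Igf2 and H19 form such a pair, and so do Dlk1 and Meg3. Many of these genes are highly expressed in the embryo and fall to low levels in most adult tissues. In the mammary gland Igf2, acting as a growth factor, is known as a local signal in ductal and alveolar growth. Read counts do not distinguish the parental copies, so the values below are summed over both.

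The promoters of 4 members are shown because each of these genes had a single tumour far above the others. Igf2, Dlk1 and Meg3 were far higher in tumour 2 than in any other tumour, and Mest was in tumour 3. The RefSeq promoter table (GRCm38.p6) matched 8 of the 10 members, all but H19 and Cdkn1c, which were also far higher in tumour 2. Each sequence is the 250 bases before a transcription start, 5′ to 3′, and capitals mark CpG dinucleotides, the sites of the methylation that imprinting uses. The Dlk1 window is chr12:109452573-109452822 (plus strand) and the Meg3 window, 1 of 2 for this gene, is chr12:109540746-109540995 (plus strand). The Igf2 window, chr7:142657497-142657746 (minus strand), is 1 of 4 for this gene and the nearest to H19. The Mest window, chr6:30737800-30738049 (plus strand), is 1 of 3. The windows were chosen after the sequences had been seen.
Dlk1: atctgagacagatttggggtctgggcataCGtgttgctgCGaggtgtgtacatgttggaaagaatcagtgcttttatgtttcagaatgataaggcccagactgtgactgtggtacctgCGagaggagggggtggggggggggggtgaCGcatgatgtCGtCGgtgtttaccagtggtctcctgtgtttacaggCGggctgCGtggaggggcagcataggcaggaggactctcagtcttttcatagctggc
Meg3: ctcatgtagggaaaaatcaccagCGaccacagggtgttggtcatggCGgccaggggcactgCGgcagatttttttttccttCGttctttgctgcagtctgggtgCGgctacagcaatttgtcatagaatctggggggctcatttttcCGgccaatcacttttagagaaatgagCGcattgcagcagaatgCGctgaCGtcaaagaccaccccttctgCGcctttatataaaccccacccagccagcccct
Igf2: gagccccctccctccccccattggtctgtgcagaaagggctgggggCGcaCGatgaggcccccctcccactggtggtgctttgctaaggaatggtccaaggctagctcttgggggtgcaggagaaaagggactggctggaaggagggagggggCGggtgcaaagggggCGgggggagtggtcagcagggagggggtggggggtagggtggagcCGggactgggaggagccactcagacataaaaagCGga
Mest: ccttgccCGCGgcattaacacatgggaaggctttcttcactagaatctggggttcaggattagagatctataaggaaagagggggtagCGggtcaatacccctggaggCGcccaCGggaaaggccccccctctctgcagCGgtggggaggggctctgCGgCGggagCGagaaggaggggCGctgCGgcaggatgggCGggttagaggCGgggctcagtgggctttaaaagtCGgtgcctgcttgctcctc

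The Dlk1 window held 8 CpGs, the Meg3 window 10, the Igf2 window 6 and the Mest window 14. The median over all 32851 windows in the table was 6. At least as many CpGs were found in 43% of windows for Dlk1, in 37.8% for Meg3, in 50.4% for Igf2 and in 29.4% for Mest, so none of these counts was unusual. A search on both strands for TATAAA, the TATA box, matched only the Meg3 window among these 4, with 2 matches that overlap, near its 3′ end. The other Meg3 window held 0 CpGs and no match. TATAAA occurred in 12.4% of all windows. These are matches of letters, and no methylation was measured in these data.

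Total counts per library ranged from 13723065 (gland 3) to 48353114 (gland 2), and no pair of libraries was a copy. Levels below are CPM (read counts per 1e6 counts of a library, scaled by edgeR's TMM factors) and are not corrected for gene length unless that is stated. Fbxw7 itself was at 14.3 to 83.6 CPM in the glands and 15.1 to 47.3 CPM in the tumours. The excised exons are not stated and the counts cover the whole gene, so this does not check the labels. In the edgeR test described below, at an adjusted p below 0.05, 8 of 10 luminal epithelial markers were higher in the tumours. All 10 had a positive log2 fold change. All 10 adipocyte markers were lower in that test, which found 6.89% of all genes higher and 8.19% lower. Salivary gland transcripts, from 12 markers, summed to 1076510 CPM in tumour 1 (TMM scaling with a factor of 0.422 can lift a sum above the library's own total) and to 177408 CPM in tumour 6. They summed to 114 to 490.4 CPM elsewhere. The 12 skeletal muscle markers summed to 162364 CPM in gland 4, against 60.8 to 16503 CPM in glands 1 to 3 and 3.14 to 1205 CPM in the tumours.

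Tumours and glands were compared with edgeR's quasi-likelihood test, with p-values adjusted by Benjamini and Hochberg over all 20101 genes and called below 0.05. None of the 10 imprinted growth genes was called (0 of 10), while 15.1% of all genes tested were. Of those 3030 genes 1384 (6.89% of the tested) were higher and 1646 (8.19%) lower in the tumours, a split that became 1809 higher and 1313 lower with upper-quartile scaling. At an unadjusted p below 0.05 the edgeR test held 2 members, Dlk1 and Grb10, against 33.4% of all genes. The limma-voom test called 1 member, Grb10, against 15.3% of genes. DESeq2 called 0 of the 6 members for which it gave an adjusted p, and 26.8% of genes. It gave none for H19, Igf2, Dlk1 and Meg3. No member had groups that did not overlap (0 of 10), against 14% of all genes. The fitted log2 fold change was positive for 7 members and negative for 3, with a median of 0.25, and the median over all tested genes was 0.17.

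Several members varied widely among the tumours. The standard deviation of log2(CPM + 0.5) over the 6 tumours was 3.72 for Igf2, 3.15 for Dlk1, 3.07 for H19, 2.50 for Cdkn1c and 2.16 for Meg3. The median over all tested genes was 0.62, and each of these 5 members was at percentile 98.2 or higher. Mest (1.84), Plagl1 (1.30) and Grb10 (1.16) were intermediate. Peg3 (0.72) and Igf2r (0.64) varied about as much as a typical gene. Among the glands only H19 (2.72) and Igf2 (2.34) varied as widely, where the median of all genes was 0.43.

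**Figure D1:**
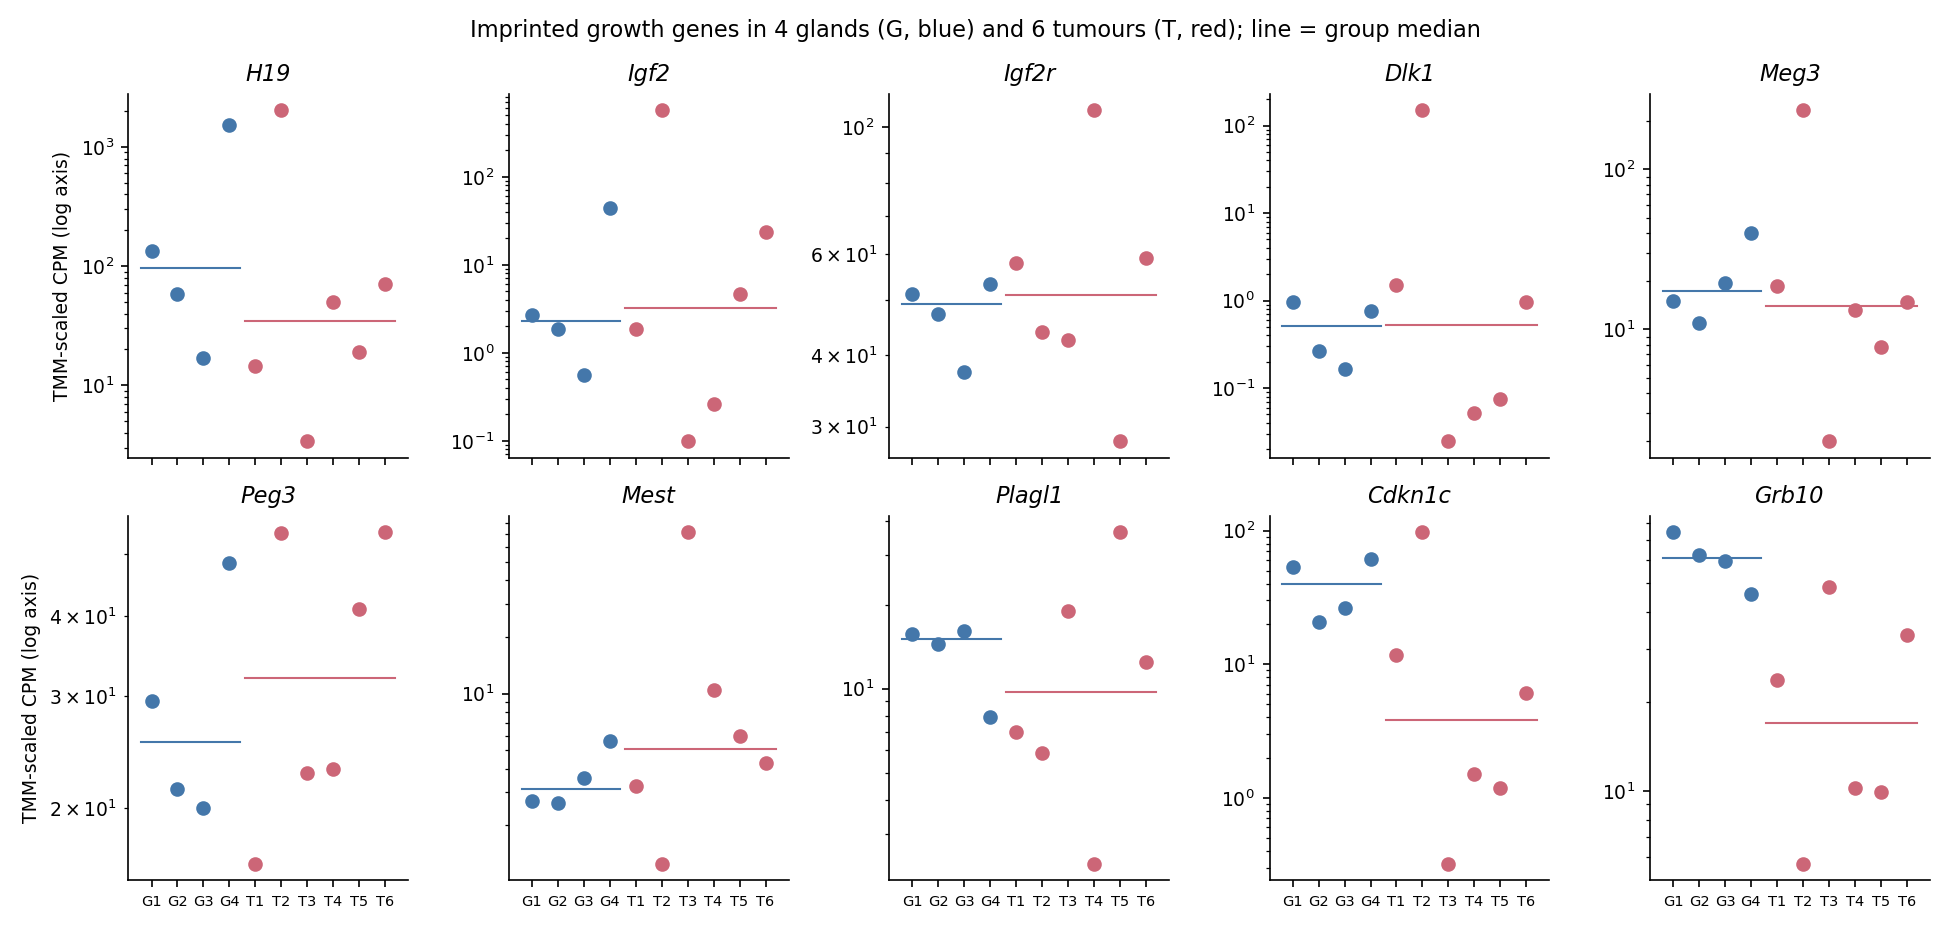
TMM-scaled CPM (log axis) of the 10 imprinted growth genes in glands 1 to 4 (G, blue) and tumours 1 to 6 (T, red), 1 point per library, with a line at each group's median. Tumour 2 is the highest tumour for H19, Igf2, Dlk1, Meg3 and Cdkn1c, tumour 3 is the lowest for the same 5 genes, and gland 4 is the highest gland for H19 and Igf2.

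Igf2 encodes a secreted growth factor that acts through the insulin and IGF1 receptors, and it is read from the paternal copy. Its level was 2.71, 1.86, 0.557 and 43.9 CPM in glands 1 to 4. In tumours 1 to 6 it was 1.85, 573, 0.0989, 0.260, 4.67 and 23.6 CPM. Tumour 2 was 24.3 times the next highest tumour, tumour 6, and tumours 3 and 4 were below every gland. The log2 fold change was 3.05 ± 2.21 (SE, edgeR adjusted p = 0.343) and turned to −1.002 ± 1.51 (adjusted p = 0.669) without tumour 2. It was 5.81 ± 2.78 (adjusted p = 0.168) without gland 4. The level in tumour 2 rests on 37903 counts and that in tumour 3 on 4, so the lower values are imprecise.

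H19, the maternally read long non-coding RNA next to Igf2, is the precursor of a microRNA and shares its enhancers with Igf2. Its level was 133, 58.7, 17.1 and 1519 CPM in the glands. Tumours 1 to 6 had 14.5, 2044, 3.39, 50.4, 18.9 and 70.4 CPM. Gland 4 and tumour 2 stood above all other libraries, and tumours 1 and 3 below all glands. Gland 4 was 11.4 times the next gland and tumour 2 was 29.0 times the next tumour. With all 10 libraries the log2 fold change was −0.24 ± 1.66 (SE, edgeR adjusted p = 0.933). Without tumour 2 it was −3.77 ± 1.27 (adjusted p = 0.0794), and without gland 4 it was 2.34 ± 1.90 (adjusted p = 0.398). The sign of the H19 difference thus changed with single libraries.

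In gland 4 the high H19 and Igf2 moved with muscle transcripts. The 12 skeletal muscle markers summed to 162364 CPM there, against 60.8 to 16503 CPM in glands 1 to 3. In gland 4, 5 muscle progenitor markers (Pax7, Myf5, Myod1, Myog and Cdh15) summed to 40.4 CPM, against 0 to 5.42 CPM in glands 1 to 3. Nctc1, a non-coding gene on the other side of H19 that is known to be expressed in muscle with Igf2 and H19, was at 62.2 CPM in gland 4 and at 10.6, 2.79 and 0 CPM in glands 1 to 3. Gland 4 was also the oldest gland. The part of muscle or age in its values was not tested. In tumour 2 the measurements were different: the muscle markers summed to 91.7 CPM, the progenitor markers to 0.287 CPM, and Nctc1 was at 0.0454 CPM, which is 3 counts.

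Within a library, the ratio of H19 to Igf2 needs no scaling between libraries. As log2 of counts + 0.5 it was 5.61, 4.98, 4.87 and 5.11 in glands 1 to 4, a mean of 5.14 ± 0.33 (SD, n = 4), so the 2 RNAs kept nearly 1 ratio there while the level of each varied widely. In the tumours it was 2.95, 1.83, 4.93, 7.55, 2.01 and 1.58, a mean of 3.48 ± 2.34 (SD, n = 6). Tumours 1, 2, 5 and 6 (4 of 6) were below every gland, tumour 3 lay among the glands and tumour 4 above them. Igf2 had 4 counts in tumour 3, 15 in tumour 4 and 10 in gland 3, so the ratios of these libraries are imprecise. The difference of means was −1.67 (exact two-sided permutation test over 210 splits, p = 0.162, adjusted over the 3 ratios 0.486, smallest p possible 0.00952). Without tumours 1 and 6, which held the salivary transcripts, it was −1.06 (exact permutation test, adjusted p = 0.971). The tumours were more spread than the glands, and that difference in spread was not tested.

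**Figure D2:**
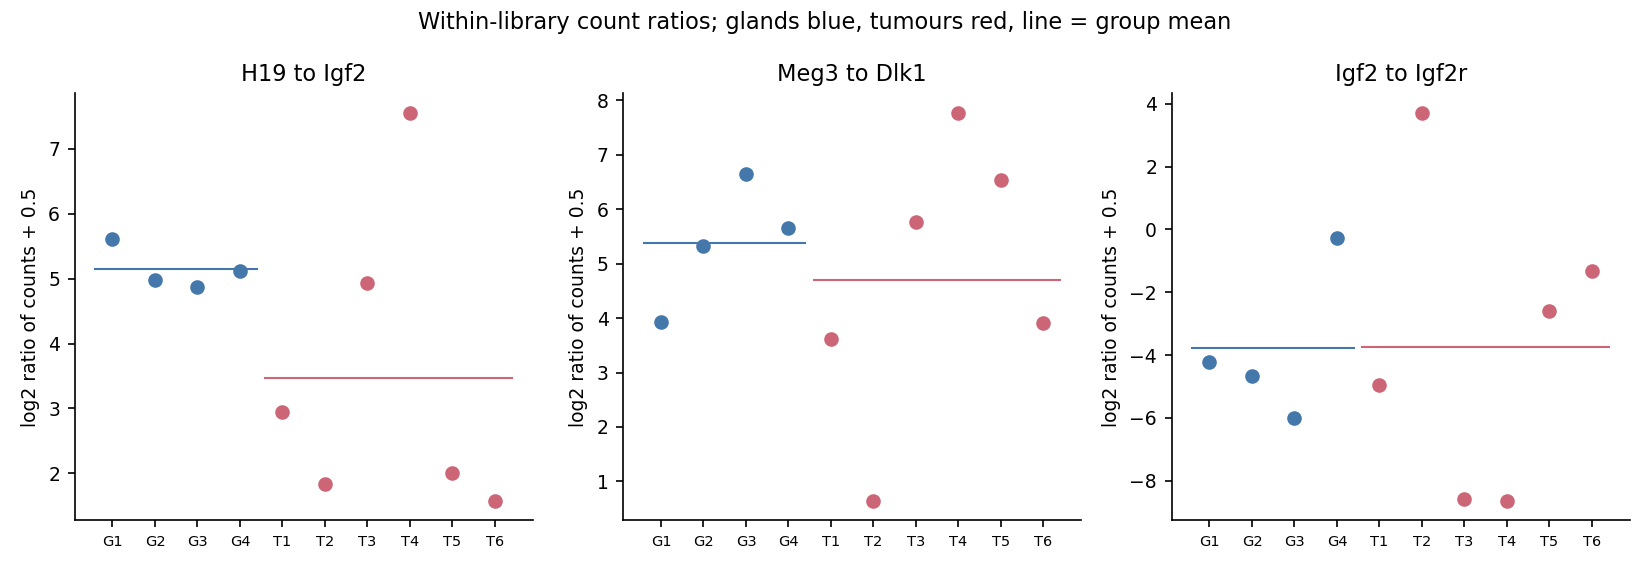
Log2 ratio of counts + 0.5 within each library for H19 to Igf2, Meg3 to Dlk1 and Igf2 to Igf2r, with glands blue (G), tumours red (T) and a line at each group's mean. The H19 to Igf2 ratio of the 4 glands lies between 4.87 and 5.61, while the 6 tumours run from 1.58 to 7.55.

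Igf2r, the maternally read receptor that carries Igf2 to the lysosome and so clears it, was among the steadiest members. It was at 51.1, 47.1, 37.4 and 53.2 CPM in the glands and at 58.0, 43.9, 42.5, 107, 28.3 and 59.2 CPM in tumours 1 to 6. Tumour 4 was the highest library and tumour 5 the lowest, and the groups overlapped. On the log2 scale the group difference was 0.26 ± 0.35 (SE, edgeR adjusted p = 0.616), and −0.0117 without tumour 4. In tumour 2, where Igf2 was 573 CPM, Igf2r at 43.9 CPM was within the range of the glands.

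The log2 ratio of ligand to clearance receptor, Igf2 to Igf2r, therefore followed Igf2. It was −4.23, −4.66, −6.00 and −0.28 in glands 1 to 4 (mean −3.79 ± 2.46, SD, n = 4). In the tumours it was −4.94, 3.71, −8.58, −8.64, −2.60 and −1.33 (mean −3.73 ± 4.72, SD, n = 6). Tumour 2 was the only library with more Igf2 than Igf2r counts, and tumours 3 and 4 had the lowest ratios. These counts are not corrected for length. Divided by exon length, gland 4 also had more Igf2 (8.36 CPM per kb) than Igf2r (5.99 CPM per kb). The group means differed by 0.062 (exact two-sided permutation test, p = 0.990, adjusted 0.990).

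Grb10 encodes an adaptor that binds the insulin and IGF1 receptors and dampens their signal. Its level was 74.3, 62.6, 59.4 and 46.04 CPM in the glands. Tumours 1 to 6 had 23.6, 5.69, 48.8, 10.2, 9.88 and 33.6 CPM. All tumours but tumour 3 were below every gland (5 of 6), and tumour 3 was above gland 4 alone. The log2 fold change was −1.47 ± 0.53 (SE, edgeR unadjusted p = 0.0182, adjusted p = 0.0830), which missed the threshold. The adjusted p passed the threshold without tumour 3 (−1.87 ± 0.48, adjusted p = 0.0332) and in limma-voom (−1.93 ± 0.54, adjusted p = 0.0345). The fold change was negative on the log2 scale in all 18 alternative settings. Adipocyte markers were lower in the tumours too, with sums of 4455 to 26562 CPM in the glands and 18.2 to 1229 CPM in the tumours. Fibroblast marker sums were 2374 to 7005 CPM in the glands. They were 272 to 2157 CPM in tumours 1 to 5, below every gland, and 6631 CPM in tumour 6. The groups thus overlapped through tumour 6 alone. Tumour 3, the highest tumour for Grb10, had the lowest adipocyte and fibroblast sums of all libraries. The part of these cell types in the Grb10 values was not tested.

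**Figure D3:**
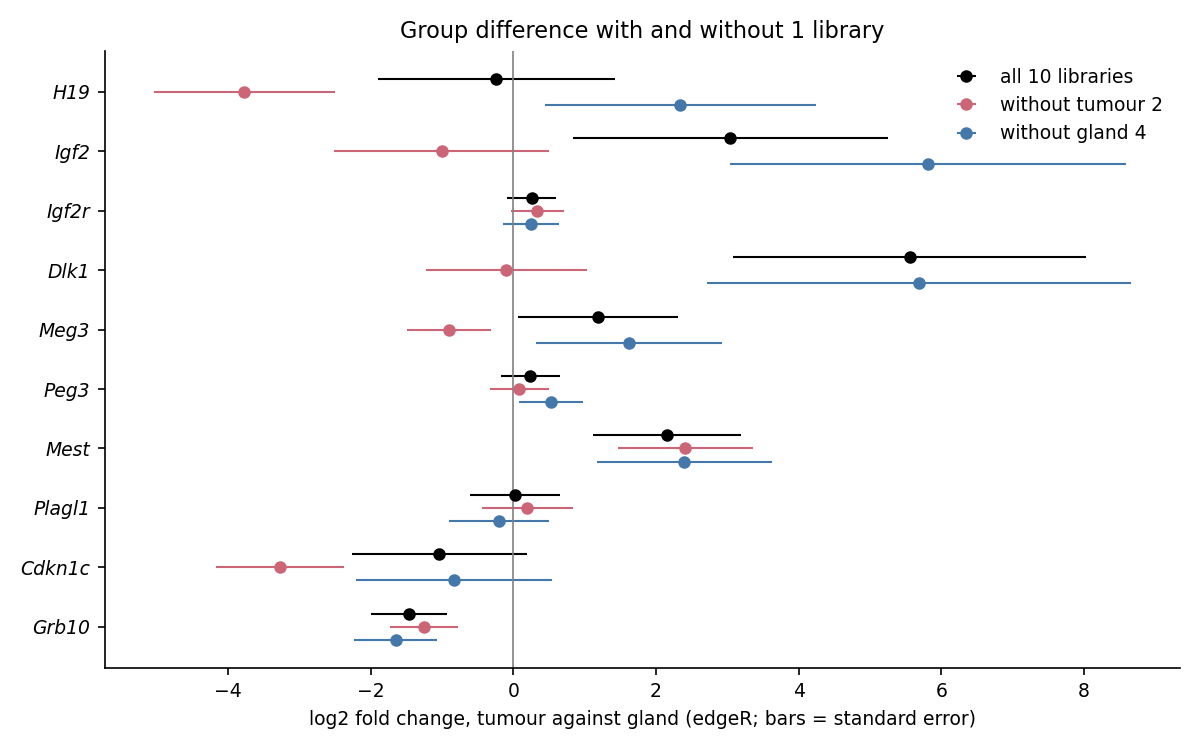
Log2 fold change of each member, tumour against gland, from the edgeR fit with all 10 libraries (black), without tumour 2 (red) and without gland 4 (blue); bars are 1 standard error. H19 moves from −0.24 to −3.77 without tumour 2 and to 2.34 without gland 4. The points of Igf2r, Peg3, Mest, Cdkn1c and Grb10 keep their side of 0 in the fits drawn. The bars of Igf2r cross 0 in every fit drawn, and those of Peg3 and Cdkn1c in some.

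Dlk1 encodes a membrane protein of the Notch ligand family that restrains adipocyte differentiation, and it is read from the paternal copy. It was near the limit of detection in most libraries. The glands had 0.970, 0.265, 0.167 and 0.763 CPM (34, 17, 3 and 12 counts), and tumours 1 to 6 had 1.51, 150.4, 0.0247, 0.0520, 0.0744 and 0.976 CPM (22, 9941, 1, 3, 4 and 35 counts). Tumour 2 was 99.8 times the next highest tumour, tumours 1 and 6 were slightly above the highest gland, and tumours 3, 4 and 5 were below the lowest. Its log2 fold change of 5.56 ± 2.48 (SE, edgeR unadjusted p = 0.0457, adjusted p = 0.142) came to −0.0943 ± 1.13 (adjusted p = 0.962) without tumour 2.

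Meg3, the maternally read long non-coding RNA of the same cluster, was readily detected in every library. It was at 15.0, 10.9, 19.5 and 39.8 CPM in the glands and at 18.8, 235, 2.003, 13.2, 7.76 and 14.8 CPM in tumours 1 to 6. Tumour 2 was 12.5 times the next highest tumour, and tumours 3 and 5 were below every gland. Its log2 fold change came to 1.19 ± 1.12 (SE, edgeR adjusted p = 0.465) and −0.90 ± 0.59 (adjusted p = 0.314) without tumour 2.

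The log2 ratio of Meg3 to Dlk1 counts was 3.93, 5.32, 6.65 and 5.65 in the glands (mean 5.39 ± 1.12, SD, n = 4). In tumours 1 to 6 it was 3.61, 0.64, 5.76, 7.77, 6.54 and 3.90 (mean 4.70 ± 2.54, SD, n = 6). Tumour 2 had the lowest ratio of the 10 libraries. Dlk1 had 3 counts in gland 3 and 1, 3 and 4 counts in tumours 3, 4 and 5, so the ratios of these libraries are imprecise. The difference of means was −0.68 (exact two-sided permutation test, p = 0.676, adjusted 0.990).

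The genes around these 2 pairs were looked up in RefSeq's gene order (chosen after the values were seen), taking the 6 nearest tested genes on each side. Around Dlk1, 5 of the 12 neighbours were highest in tumour 2 among the tumours: Wars, Begain, Meg3, Rian and Mirg. Of these Meg3 is itself a member, and Wars was nearly level with the next tumour (30.9 against 30.4 CPM). Tumour 2 was the highest tumour for 12.4% of all tested genes. Rian and Mirg, non-coding RNAs that are read from the maternal copy downstream of Meg3, were at 41.5 and 5.16 CPM in tumour 2, while no other tumour passed 15.9 and 0.669 CPM. Begain, on the other side of Dlk1, was at 3.09 CPM (204 counts) and at most 0.808 CPM elsewhere among the tumours. Yy1 and Ppp2r5c, further out, were at 74.1 and 84.6 CPM, within the range of the other tumours.

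Around Igf2 the high levels were narrower. Of the 12 neighbours 2 were highest in tumour 2, H19 and Tspan32, the latter at 3.78 CPM. Cd81 was at 385 CPM against a median of 373 CPM in the other tumours, and Mrpl23, on the far side of Nctc1, was at 1.98 CPM against 3.70 CPM. The median log2 difference between tumour 2 and the other tumours was 0.049 over the 12 neighbours of Igf2 and 0.45 over those of Dlk1.

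**Figure D4:**
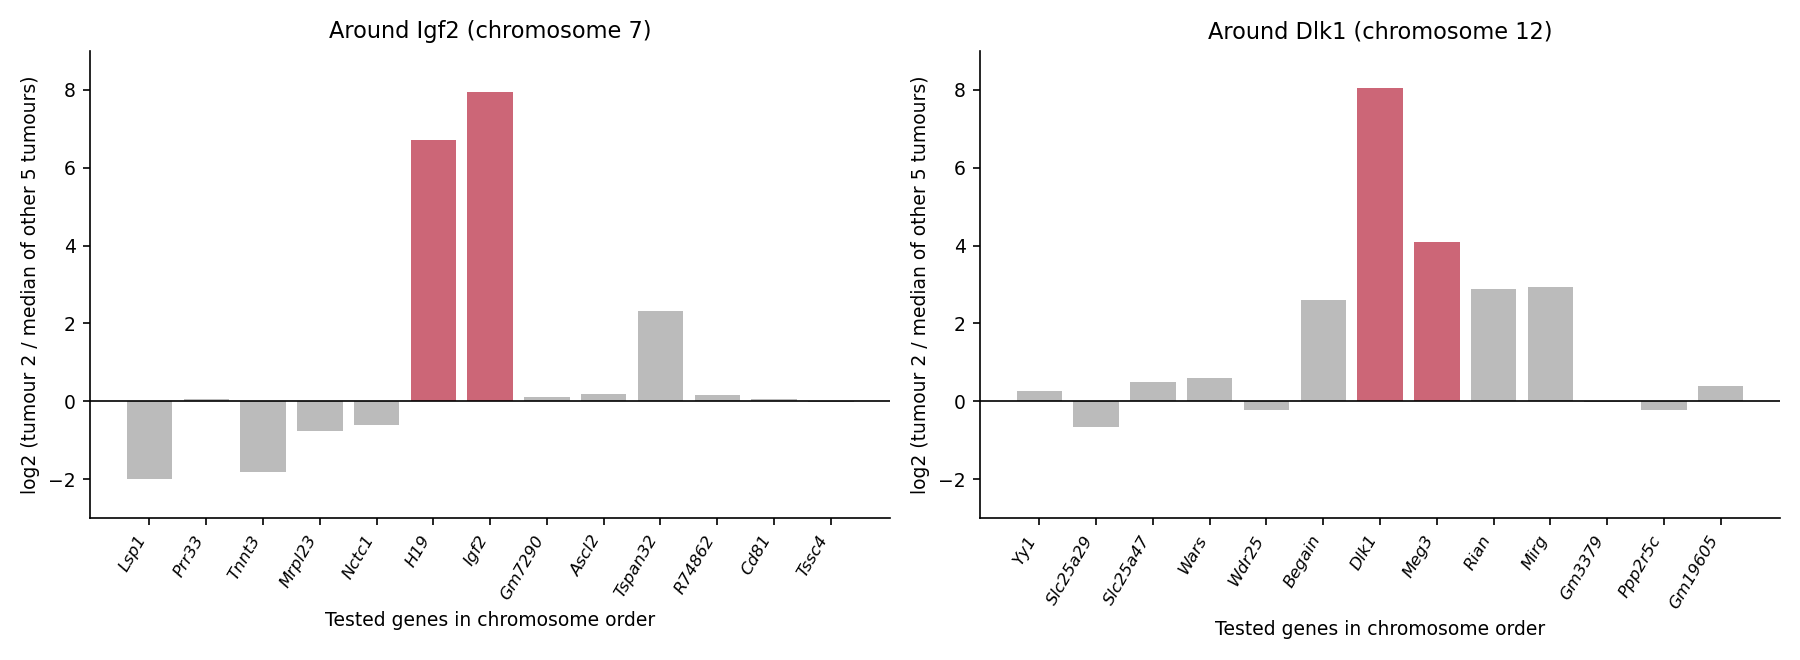
Log2 of the level in tumour 2 over the median of the other 5 tumours, with 0.5 CPM added to both, for tested genes in chromosome order around Igf2 (left) and Dlk1 (right); members are red. Igf2 stands at 7.93 and H19 at 6.72 between neighbours mostly near 0, and Dlk1 at 8.04 and Meg3 at 4.10 beside Begain, Rian and Mirg, which are also above 0.

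Cdkn1c encodes p57, an inhibitor of cyclin-dependent kinases that halts the cell cycle, and it is read from the maternal copy. It was at 53.4, 20.8, 26.2 and 60.9 CPM in the glands. In tumours 1 to 6 it was at 11.8, 96.9, 0.322, 1.51, 1.19 and 6.13 CPM. Tumour 2 was above every gland and the other five, tumours 1 and 3 to 6, were below every gland (5 of 6). With all libraries the log2 fold change was −1.03 ± 1.22 (SE, edgeR adjusted p = 0.567). Without tumour 2 it was −3.27 ± 0.90 and passed the threshold (edgeR adjusted p = 0.0455), in a fit that called 10.3% of genes. In that comparison Cdkn1c was the only member whose groups did not overlap (1 of 10, 10%), against 15.2% of all genes. Of 10 adipocyte markers 10 and of 10 fibroblast markers 1 were called lower in the tumours. All 10 fibroblast markers had a negative log2 fold change. The marker sums are those given for Grb10, and the part of these cell types in Cdkn1c was not tested.

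Among the 12 tested neighbours of Cdkn1c, only Kcnq1ot1 was highest in tumour 2, at 376 CPM against at most 211 CPM in the other tumours. Kcnq1ot1 is the paternally read antisense RNA that silences Cdkn1c on its own copy. Kcnq1, Slc22a18 and Phlda2, of the same domain, were at 3.77, 5.55 and 0.545 CPM in tumour 2, and other tumours reached 12.1, 13.6 and 3.76 CPM.

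Mest, a paternally read gene for an enzyme of the hydrolase family that is linked to growth and adipocyte size, was at 2.71, 2.62, 3.56 and 5.60 CPM in the glands. Tumours 1 to 6 had 3.22, 1.26, 71.7, 10.5, 5.94 and 4.27 CPM. Tumours 3, 4 and 5 were above every gland and tumour 2 below, with tumour 3 at 6.85 times the next highest tumour. Its log2 fold change was 2.16 ± 1.04 (SE, edgeR adjusted p = 0.168) and 0.48 ± 0.57 (adjusted p = 0.561) without tumour 3. Of its 12 tested neighbours 5 were highest in tumour 3 as well: Zc3hc1, Tmem209, Cep41, Copg2 and Mkln1os. Tumour 3 was the highest tumour for 26.8% of all tested genes. Copg2, which overlaps the end of Mest on the other strand, was at 103 CPM there, where no other tumour passed 53.1 CPM. The strand setting of the counting is not given, so reads of that overlap cannot be told apart.

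Plagl1 and Peg3 encode zinc finger transcription factors and are read from the paternal copy. Plagl1, which can arrest cell growth and regulates other imprinted genes, was at 15.7, 14.5, 16.1 and 7.88 CPM in the glands and at 6.99, 5.87, 18.9, 2.36, 36.3 and 12.4 CPM in tumours 1 to 6. Tumour 5 was the highest, at 1.92 times tumour 3, and tumour 4 the lowest, so tumours lay on both sides of the glands. Its fold change was 0.027 ± 0.63 on the log2 scale (SE, edgeR adjusted p = 0.980), with either sign in other settings. Peg3 was at 29.4, 21.4, 20.0 and 48.4 CPM in the glands and at 16.4, 54.0, 22.7, 23.0, 41.0 and 54.1 CPM in the tumours. These ranges overlapped over most of their length, with a log2 fold change of 0.24 ± 0.41 (SE, edgeR adjusted p = 0.699).

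Tumour 2, taken at 32 weeks, held the highest level among the tumours for 5 of the 10 members. The share over all tested genes was 12.4%. Each of the 5 was at least 5 times the next highest tumour, which was true of 70 genes, or 0.348% of those tested. By log2 of tumour 2 over the median of the other tumours, Dlk1 (8.04), Igf2 (7.93) and H19 (6.72) were the 3 highest of all 20101 genes, Cdkn1c (5.60) ranked 8 and Meg3 (4.10) ranked 34. Mest (−1.87) and Grb10 (−1.96) were lowest in this tumour, while the median of all genes was 0.022. These shares and ranks describe the 10 genes in 1 library and are no test, since the genes were chosen with earlier results of these data known. Beside them, the fibroblast markers summed to 447 CPM and the muscle markers to 91.7 CPM in tumour 2, the first below all 4 glands and the second below all but gland 3, the luminal markers to 3279 CPM and the basal markers to 1165 CPM.

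Tumour 3 went the other way for these genes. It had the lowest level among the tumours of the same 5 members, H19, Igf2, Dlk1, Meg3 and Cdkn1c, and the highest of Mest and Grb10, the 2 that were lowest in tumour 2. Tumour 3 was lowest for 28.8% of all tested genes. Its fibroblast markers had the lowest sum of all libraries, 272 CPM, and its adipocyte markers too, 18.2 CPM, and their part in these values was not tested. Tumours 4, 5 and 6 each held a highest value of a single other member, Igf2r, Plagl1 and Peg3.

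Levels can be compared between genes only per length of transcript. Divided by exon length, the medians in the glands were in the order H19 (42.0 CPM per kb), Cdkn1c (20.5), Grb10 (11.9), Igf2r (5.53), Peg3 (2.92), Plagl1 (2.81), Mest (1.13), Meg3 (1.10), Igf2 (0.435) and Dlk1 (0.107). In the tumours the order of medians was H19 (15.2 CPM per kb), Igf2r (5.73), Peg3 (3.68), Grb10 (3.29), Cdkn1c (1.97), Mest (1.84), Plagl1 (1.80), Meg3 (0.893), Igf2 (0.621) and Dlk1 (0.110). Neighbours in either order overlapped in their ranges over libraries, except that every gland had more Grb10 (8.97 to 14.5 CPM per kb) than any had Igf2r (4.21 to 5.99). H19 led both orders and Dlk1 closed both, and Cdkn1c went from the second place to the fifth.

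Likeness between genes was measured as the root mean square difference of their log2(CPM + 0.5) profiles over the 10 libraries, each centred on its own mean. H19 and Igf2 were each other's nearest member (1.57), and Dlk1 and Meg3 were too (1.25). Cdkn1c was nearest to Meg3 (1.41), Igf2r and Peg3 to each other (0.83), Mest to Igf2r (1.44), Plagl1 to Peg3 (1.11) and Grb10 to Plagl1 (1.23). For Igf2r, Peg3, Mest, Plagl1 and Grb10 that distance was larger than the member's own distance from a flat profile (0.47, 0.60, 1.39, 0.97 and 1.21), so no other member was close to them. Among all other named genes the profile of Meg3 was most like Tenm2 (0.43) and Kctd4 (0.54), and that of Dlk1 most like Scgb3a1 (0.94) and Tmem132b (0.97). For H19 they were Lrrn1 (1.24) and Tenm2 (1.39), and for Igf2 they were Wif1 (1.47) and Prob1 (1.63). Cdkn1c had Rai2 (0.70) and Maob (0.95), and Grb10 had Wasf3 (0.45) and Tpst1 (0.48). Nearest to Mest were Susd5 (0.56) and Plod2 (0.57), and nearest to Plagl1 were Il1r1 (0.41) and Prr5l (0.44). Igf2r had Fstl3 (0.20) and Sppl2b (0.26), and Peg3 had Vegfc (0.25) and Pdgfb (0.26). A gene that varies little has small distances by construction, so these are not comparable between members.

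Other imprinted genes were taken from a list of 25 paternally and 24 maternally read genes, of which 20 and 22 were tested. Together 7 of these 42 genes were lower in the tumours and 0 higher, which is 16.7% against 15.1% of all genes, with a median log2 fold change of −0.29. The 0 higher was specific to the edgeR threshold. At an unadjusted p below 0.05 that test held 7 higher and 14 lower (50%, against 33.4% of all genes). DESeq2 called 5 higher and 11 lower (39.0% against 26.8%), and limma-voom 1 higher and 12 lower (31.0% against 15.3%). Of all genes tested 8.19% were called lower. Among the paternally read genes 5 of 20 were lower (25%), with a list median of −0.87: Nap1l5 and Slc38a4, described next, and Peg13, Sgce and Impact. Among the maternally read genes 2 of 22 were lower (9.09%), Trappc9 and Osbpl5, with a list median of 0.19. DESeq2 called 5 of the maternally read genes higher and 5 lower (47.6%, against 26.8% of all genes). Tumour 2 was the highest tumour for 5 of the 42, and at least 5 times the next for 1 of them.

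Slc38a4, an amino acid transporter gene, was at 4.07 to 64.8 CPM in the glands, highest in gland 4, and at 0.0247 to 1.90 CPM in the tumours (log2 fold change −5.28 ± 1.28, SE, edgeR adjusted p = 0.0224). Nap1l5, a relative of nucleosome assembly proteins, was at 1.34 to 9.87 CPM in the glands and 0.0186 to 0.892 CPM in the tumours (−4.19 ± 0.99, adjusted p = 0.0203). Both were lower in 6 of 6 tumours than in every gland. Slc38a4 missed the threshold without gland 4 (adjusted p = 0.0606) and Nap1l5 without gland 1 (adjusted p = 0.0604).

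Peg13, a non-coding RNA that lies within the trafficking gene Trappc9, fell with it: −1.77 ± 0.48 (SE, edgeR adjusted p = 0.0338) for Peg13 and −1.36 ± 0.36 (adjusted p = 0.0311) for Trappc9. Since they overlap, their reads may be shared. Osbpl5, a lipid-binding protein gene of the Cdkn1c domain, fell by 1.49 on the log2 scale (SE 0.43, edgeR adjusted p = 0.0394). Peg13, Trappc9 and Osbpl5 each lost the call in 5 of the 10 fits that left out a library, glands 1, 2 and 3 among them. So did Impact in 5 and Sgce in 6 of these fits. Adipocyte marker sums were lower in the tumours, in the ranges given for Grb10. Fibroblast sums were below every gland in tumours 1 to 5 and within the gland range in tumour 6. Slc38a4 was highest among the glands in gland 4, where the muscle markers summed to 162364 CPM. Among the tumours it was highest in tumour 6 (1.90 CPM), which had the highest adipocyte, fibroblast and muscle sums of the tumours. The part of these cell types in the 7 genes was not tested.

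**Figure D5:**
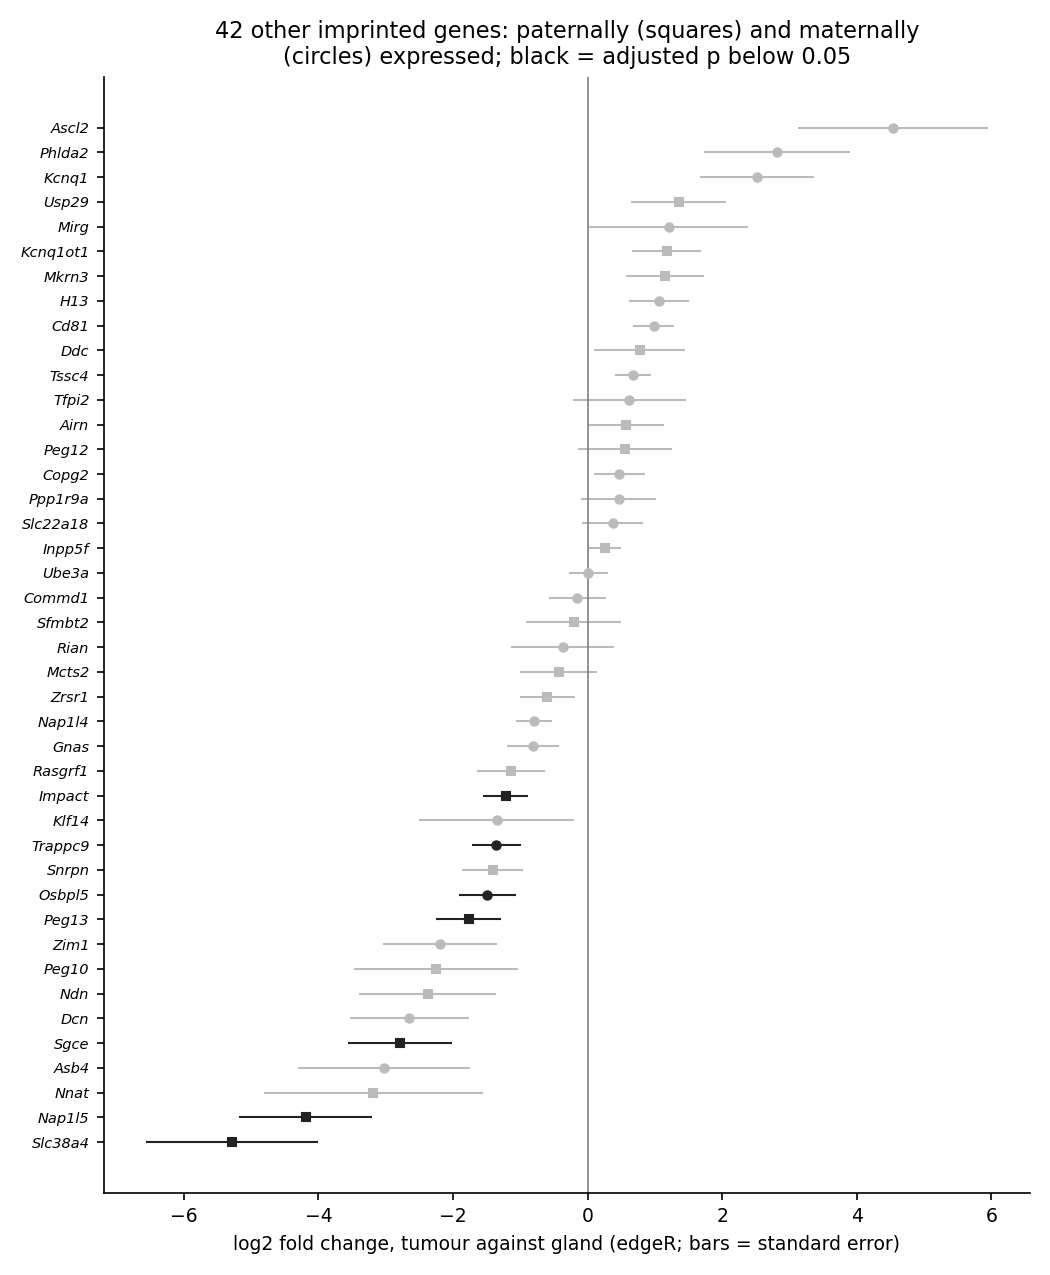
Log2 fold change, tumour against gland, with 1 standard error, of the 42 other imprinted genes tested, paternally (squares) and maternally (circles) read, with genes called in edgeR in black. The 7 called genes all lie below 0, from Slc38a4 at −5.28 to Impact at −1.21.

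Partners of the IGF pathway (17 of 18 listed genes tested) held 1 gene that rose and 4 that fell, 5 in all, with a list median of −0.34. That is 23.5% of the tested partners called lower, against 8.19% of all genes. In either direction it is 29.4%, against 15.1% of all genes. The split depended on the test. DESeq2 called 4 higher and 4 lower (47.1%, against 26.8% of all genes), and limma-voom 0 higher and 4 lower (23.5% against 15.3%). An unadjusted edgeR p below 0.05 held 4 higher and 6 lower (58.8% against 33.4%). Igfbp3, a binding protein that holds IGFs in the circulation and around cells, rose from 15.1 to 40.2 CPM in the glands to 23.6 to 140 CPM in the tumours (log2 fold change 1.67 ± 0.48, SE, edgeR adjusted p = 0.0387), above every gland in 5 of 6. Igf1, the other IGF ligand, was at 84.7 to 173 CPM in the glands and at 6.60 to 73.7 CPM in the tumours (−2.28 ± 0.65, adjusted p = 0.0398). Igfbp6, a binding protein that prefers Igf2, fell from 84.2 to 315 CPM to 0.223 to 37.5 CPM (−4.09 ± 1.13, adjusted p = 0.0355). Igf1 and Igfbp6 were lower in 6 of 6 tumours than in every gland.

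Grb14, the closest relative of Grb10 among these adaptors, fell by 3.20 on the log2 scale (SE 0.61, edgeR adjusted p = 0.00991) and kept its call in all 10 fits that left out a library. It was at 9.13 to 68.0 CPM in the glands and at 1.10 to 4.92 CPM in the tumours. Igfbp7 was the other gene called lower. Igfbp3 lost its call in 9 of those 10 fits, Igfbp7 in 8, Igf1 in 7 and Igfbp6 in 6. The adipocyte marker sums were lower in the tumours, as were Igf1, Igfbp6 and Igfbp7. The fibroblast sums were below every gland in tumours 1 to 5 and within the gland range in tumour 6. Grb14 was highest in gland 4, at 68.0 CPM against 9.13 to 18.7 CPM in glands 1 to 3, and gland 4 had the lowest adipocyte and fibroblast sums of the glands and the highest muscle sum (162364 CPM). The part of these cell types was not tested.

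Of 12 tested factors that set or keep imprints (14 listed), 1 rose and 0 fell in edgeR, DESeq2 and limma-voom alike. That is 8.33% in edgeR, where 6.89% of all genes were called higher and 15.1% in either direction. DESeq2 called 26.8% of all genes and limma-voom 15.3%. At an unadjusted edgeR p below 0.05, 2 factors rose and 0 fell, which is 16.7% against 33.4% of all genes. The gene called by edgeR was Uhrf1, which guides the maintenance methyltransferase to replicating DNA, at 2.03 to 8.07 CPM in the glands and 6.24 to 68.6 CPM in the tumours (log2 fold change 2.70 ± 0.66, SE, edgeR adjusted p = 0.0233). It was above every gland in 5 of 6 tumours and lost the call without gland 1 or gland 4. The highest Uhrf1 level was in tumour 3. The list median was 0.42, where the median over all tested genes was 0.17, and 11 of the 12 factors had a positive log2 fold change.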

How the data were processed

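The authors deposited unscaled whole-number counts, 1 per gene symbol and library. PolyA-selected RNA from TRIzol extracts was sequenced after NEBNext Ultra library preparation, per the labels' protocols. Per the submitters' processing notes the tools were Salmon 1.2.0 and DESeq and the build mm9, with no roles stated. The step from transcripts to genes is not given. Symbols were matched to RefSeq and GENCODE tables by name only, for gene order, exon length and promoter windows (GRCm38), so no coordinate belongs to the authors' build.

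Groups were compared in edgeR 4.0.16 under R 4.3.3 (filterByExpr, TMM, quasi-likelihood F test, 6 tumours against 4 glands, no covariate, Benjamini-Hochberg threshold 0.05). A standard error is the fold change on the log2 scale over the square root of its F value. Ratios used exact permutation tests in scipy 1.17.1. Alternatives were DESeq2 1.42.0, limma-voom 3.58.1, other scaling and filters, age as a covariate, tumours 1 and 6 left out, and each library left out. No libraries were copies: the chi-square statistic per degree of freedom was at least 37.8 in all 45 pairs.

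The text names all 10 members. It names from each list up to 3 called genes per direction with the smallest adjusted p. For each member it names the 2 most similar genes and the nearest member. Igfbp7, Sgce, Impact and chromosomal neighbours were named after their values were seen. The members and lists were chosen with earlier results of these data known.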

Additional observations from a re-analysis of the deposited data

Results flagged for a closer look

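In each group of 4 or 6 libraries the highest and lowest values were set against the group's range (Dixon's criterion). Of 26 groups looked at, 8 had a value that stood apart. In tumour 2 these were H19 at 2044 CPM, Igf2 at 573 CPM, Dlk1 at 150.4 CPM, Meg3 at 235 CPM and Cdkn1c at 96.9 CPM, each far above the other 5 tumours. In tumour 3 it was Mest at 71.7 CPM. In gland 4 they were H19 at 1519 CPM and Igf2 at 43.9 CPM, each far above the other 3 glands. H19 and Igf2 are thus the members for which both groups held such a library. The levels are on a linear scale, on which a high value stands apart more readily than on a log scale. The criterion's rate of about 1 in 20 is for independent, normally distributed values. Most of the values that stood apart came from tumour 2, so 8 of 26 is a description and no test.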

How the results depend on the processing

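The edgeR test called 3030 genes over all libraries. DESeq2 called 5252, age as a covariate left 1899, and leaving out 1 library gave 1053 (without gland 1) to 3521. It fell by more than 1.5 times also without gland 2 (1496), gland 3 (1769), tumour 2 (2006) or tumour 4 (1837). With upper-quartile scaling the median over all genes shifted by 0.16 (log2). Of the members, 1 was called by limma-voom (Grb10), and 0 to 1 when a library was left out: Cdkn1c without tumour 2 and Grb10 without tumour 3. The log2 fold change of H19 became 0.18 with age and 0.30 without tumours 1 and 6, and ran from −3.77 to 2.34 when a library was left out. That of Plagl1 became −0.94 with age and −0.50 in limma-voom, and ran from −0.53 to 0.26. Meg3 was at −0.11 in limma-voom and ran from −0.90 to 1.62. Leaving out 1 library gave −1.002 to 5.81 for Igf2, −0.0117 to 0.41 for Igf2r and −0.0943 to 6.03 for Dlk1. In limma-voom the log2 fold change was 0.45 for Dlk1, 0.63 for Igf2, 0.97 for Mest, −3.11 for Cdkn1c and −1.42 for H19, against 5.56, 3.05, 2.16, −1.03 and −0.24 in edgeR. Grb10, Cdkn1c, Mest and Peg3 kept their sign in all 18 alternatives. Dlk1 was not kept by the stricter filter. The log2 ratio difference of Igf2 to Igf2r became −0.23 without tumours 1 and 6 and ran from −1.43 to 1.23. When a library was left out, Meg3 to Dlk1 ran from −1.30 to 0.13 and H19 to Igf2 from −2.48 to −1.29. Without tumours 1 and 6, Meg3 to Dlk1 was −0.21 and H19 to Igf2 was −1.06. Neither ratio passed the threshold in any alternative. Calls in the other lists ran, when a library was left out, from 1 to 6 (paternally read, 5 with all), 0 to 4 (maternally read, 2), 1 to 5 (IGF partners, 5) and 0 to 2 (imprint factors, 1). With age as a covariate they were 2, 0, 2 and 0. No paired analysis was possible because the numbers in the tumour labels are not shared with any gland. The cause of these shifts was not tested. Low counts limit Dlk1 and Igf2 most, with 1 and 4 counts in tumour 3.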
